A study of Saccharomyces cerevisiae and Saccharomyces kudriavzevii and Saccharomyces uvarum with 18 samples.

Results

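The first steps that turn amino acids into fusel alcohols were followed through 6 genes in wine fermentations at 12°C and 28°C. They were 4 transaminase genes, ARO8 (YGL202W), ARO9 (YHR137W), BAT1 (YHR208W) and BAT2 (YJR148W), and 2 genes of the decarboxylase family, ARO10 (YDR380W) and THI3 (YDL080C). The genes were taken by their place in the pathway and not by their values, though with earlier results of these data known. They make up 6 of the 6172 genes on the array. All 6 had a value on each of the 18 arrays. Each array set 1 of 3 strains against the wine strain S. cerevisiae Lalvin T73, grown in Tempranillo must at the same temperature and collected as stationary phase began. A commercial wine yeast, Fermol cryophile, stood for S. cerevisiae, and the other strains were S. uvarum CECT 12600, called S. bayanus var. uvarum in the study, and IFO 1802 of S. kudriavzevii. They formed 6 groups of 3 arrays, 1 group for each strain and temperature, with replicates A, B and C. The titles name CECT 12600 on all S. uvarum arrays, whereas the strain entry reads CECT 12600 for replicate A, CECT 12601 for B and CECT 12602 for C, and the titles were followed here. By the titles each species set against T73 was represented by 1 strain. For S. uvarum and S. kudriavzevii, species and strain thus cannot be told apart. T73 is itself S. cerevisiae, so Fermol cryophile against T73 is a comparison within 1 species.

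In the Ehrlich pathway a transaminase first moves the amino group of an amino acid onto a keto acid. A decarboxylase then removes carbon dioxide from the resulting keto acid, and the fusel aldehyde is either reduced by an alcohol dehydrogenase to a fusel alcohol or oxidised to a fusel acid. In wine yeast, leucine gives isoamyl alcohol in this way and phenylalanine gives phenylethanol, which acetyltransferases can turn into fruity and floral acetate esters. The same transaminases also serve amino acid synthesis, since their reaction is reversible.

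All values are log2 ratios of strain over T73, so that 1 stands for 2-fold more and -1 for 2-fold less transcript than in T73. A ratio compares 2 RNA samples, and less transcript per cell cannot be told apart from fewer cells that carry it. The probes are PCR products of S. cerevisiae genes, so a ratio of S. uvarum or S. kudriavzevii can also hold a difference in hybridisation, which was not separated. The spread over all genes differed between arrays, with standard deviations between 0.63 (Fermol cryophile replicate C at 28°C) and 1.99 (S. kudriavzevii replicate B at 12°C). On the array with the narrowest spread 6.11% of the genes lay at least 2-fold from T73. The groups were fitted together with limma, and a gene is referred to as called where its p, adjusted by Benjamini-Hochberg over all genes tested, was below 0.05. The study's methods name 2 fermentations where cells were collected and 3 experiments where arrays were hybridised. If 2 arrays of a group shared a fermentation, the SD and p-values below would be too small.

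ARO10, the main keto acid decarboxylase for aromatic and several other amino acids in S. cerevisiae, lay above T73 in all 3 strains at 12°C and was called in S. uvarum (4.94-fold) and S. kudriavzevii (2.76-fold). BAT1 and BAT2, the branched-chain amino acid transaminases, gave higher ratios at 28°C than at 12°C over the strains as a whole. ARO8, ARO9 and THI3 were called in no group and in no comparison of temperatures with all arrays as deposited. Of the 36 combinations of gene and group, 3 were called (8.33%) and 11 had an unadjusted p below 0.05 in limma (30.6%). Over all genes and the same 6 groups the shares were 8.16% and 24%, so the number of calls among the 6 genes was close to the background.

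**Figure D1:**
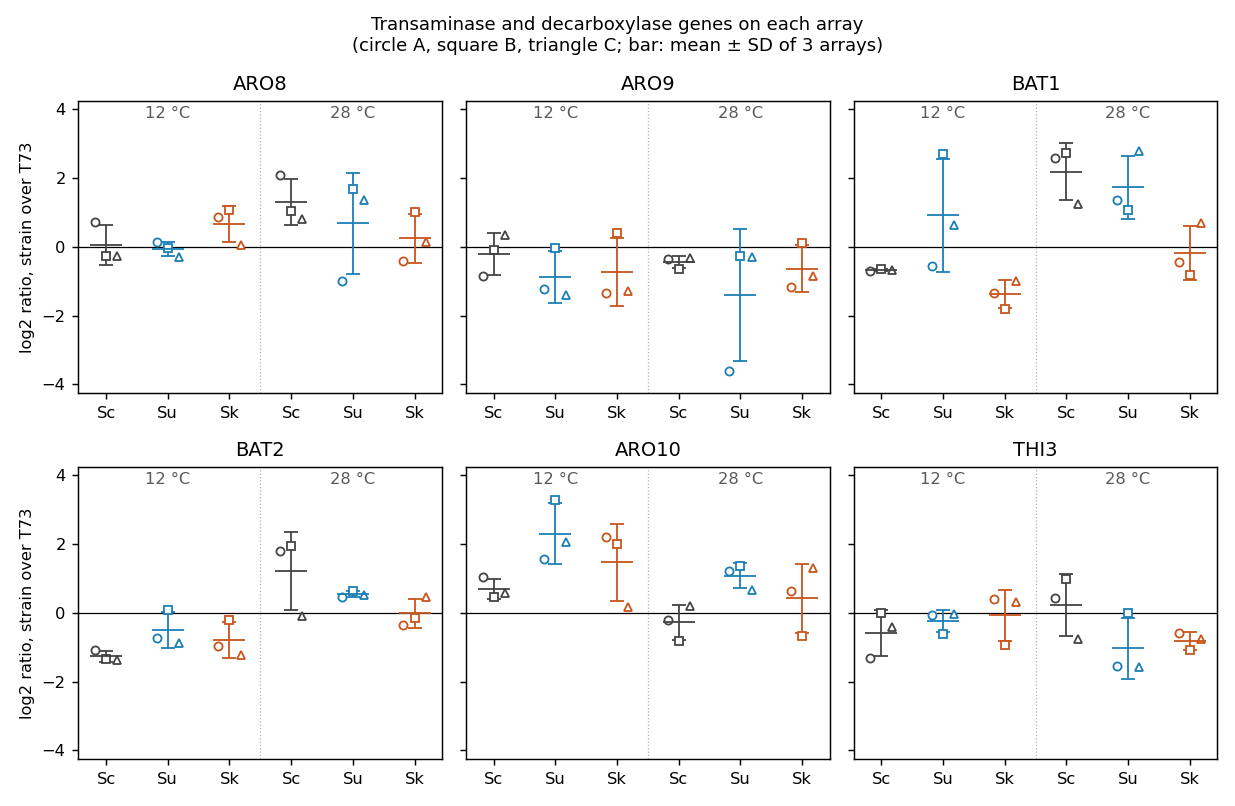
Log2 ratio of strain over T73 (vertical axis) on each of the 18 arrays for the 6 genes, with Sc for S. cerevisiae Fermol cryophile, Su for S. uvarum and Sk for S. kudriavzevii, and 12°C left and 28°C right of the dotted line. Circles, squares and triangles are replicates A, B and C, and the bars give the mean and SD of 3 arrays; all 9 ARO10 points at 12°C lie above 0, while the 3 BAT1 points of Fermol cryophile lie between -0.71 and -0.63 at 12°C and between 1.25 and 2.74 at 28°C.

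ARO10 catalyses the step that commits a keto acid to a fusel aldehyde. In S. uvarum at 12°C its log2 ratios were 1.57, 3.29 and 2.05 on replicates A, B and C. In S. kudriavzevii they were 2.21, 2.01 and 0.17, and in Fermol cryophile 1.03, 0.47 and 0.59. All 9 arrays at 12°C were thus above 0, which held for 9.89% of the genes with 9 values. The 3 strains were set against the same T73 at that temperature, so the 9 ratios are not independent of each other.

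The mean of ARO10 at 12°C was 2.30 ± 0.89 in S. uvarum (SD, n = 3; limma adjusted p 0.0111), with a 95% interval of 1.35 to 3.26. On the 3 S. uvarum arrays ARO10 lay above 90.5%, 95.7% and 98.0% of the genes. In S. kudriavzevii the mean was 1.46 ± 1.12 (SD, n = 3; adjusted p 0.0290, interval 0.51 to 2.42), and replicate C stood well below the other two. Fermol cryophile had the lowest mean but the tightest arrays, at 0.70 ± 0.30 (SD, n = 3), and was not called (adjusted p 0.315). The share of all genes called differed between groups. Limma called 6.4% of all genes in S. uvarum at 12°C (2.44% higher than T73) and 23.4% in S. kudriavzevii (13.7% higher), against 8.12% in Fermol cryophile.

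Both ARO10 calls rested on few arrays. Without S. uvarum replicate B the mean was 1.81 with an adjusted p of 0.125, and without replicate C it was 2.43 with an adjusted p of 0.0741. The S. kudriavzevii call was lost without replicate A (1.09, adjusted p 0.192) or replicate B (1.19, adjusted p 0.165), and also when the arrays were scaled to a common spread (1.05, adjusted p 0.114).

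At 28°C the ARO10 ratios were lower. S. uvarum stayed above T73 on all 3 arrays, with 1.20, 1.37 and 0.67 (mean 1.08 ± 0.36, SD, n = 3, adjusted p 0.128). S. kudriavzevii gave 0.62, -0.67 and 1.32, on both sides of 0. In Fermol cryophile the values were -0.20, -0.82 and 0.18, so that at 28°C 6 of 9 arrays were above 0 against 9 of 9 at 12°C.

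THI3 resembles the pyruvate decarboxylases in sequence and is best known in S. cerevisiae as a regulator of thiamine genes. It lay above T73 in none of the groups throughout. At 12°C its ratios were -1.33, -0.01 and -0.42 in Fermol cryophile, -0.05, -0.62 and -0.05 in S. uvarum, and 0.40, -0.94 and 0.31 in S. kudriavzevii. At 28°C S. uvarum had -1.54, -0.01 and -1.57, and S. kudriavzevii -0.60, -1.09 and -0.77. Both groups were below T73 on all 3 arrays, but with adjusted p of 0.116 and 0.479 neither was called. Fermol cryophile at 28°C was split, with 0.44 and 0.99 on replicates A and B and -0.77 on C.

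BAT1 encodes the mitochondrial branched-chain transaminase, which acts mainly in the synthesis of leucine, isoleucine and valine, and BAT2 the cytosolic enzyme, which acts mainly in their breakdown to fusel alcohols. At 12°C the 3 BAT1 ratios of Fermol cryophile were nearly equal, at -0.71, -0.63 and -0.66 (mean -0.67 ± 0.04, SD, n = 3). S. kudriavzevii was lower still, with -1.34, -1.80 and -0.98, a mean of -1.37 ± 0.41 (SD, n = 3). It missed the threshold with an adjusted p of 0.0609 and passed it once each array was centred on its median (-1.42, adjusted p 0.0463) or once 1 S. uvarum array at 12°C was left out, with adjusted p of 0.0429 without replicate A and 0.0284 without B. In S. uvarum the arrays disagreed, with -0.56 on replicate A, 2.69 on B and 0.63 on C.

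At 28°C BAT1 was higher than T73 on all arrays of 2 strains. Fermol cryophile gave 2.58, 2.74 and 1.25, a mean of 2.19 ± 0.82 (SD, n = 3), and on each of these arrays BAT1 lay above at least 97.2% of the genes. S. uvarum gave 1.36, 1.08 and 2.79, a mean of 1.74 ± 0.92 (SD, n = 3), or 3.34-fold. S. kudriavzevii gave -0.43, -0.81 and 0.69, around the level of T73.

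Of these groups S. uvarum was called for BAT1 (adjusted p 0.0391, interval 0.66 to 2.83), where limma called 10.9% of all genes (7.99% higher). Fermol cryophile had the larger mean but an adjusted p of 0.128 (interval 1.11 to 3.27), in a group where limma called 0.0325% of genes and 826 had an unadjusted p below 0.05. The S. uvarum call was lost without any of its own 3 arrays (1.93, 2.07 and 1.22 without A, B and C, adjusted p up to 0.302) and without Fermol cryophile replicate B or C at 12°C or S. kudriavzevii replicate A at 28°C (adjusted p 0.0540, 0.0512 and 0.0513). Conversely, Fermol cryophile at 28°C was called without its replicate C, the array with the narrowest spread, with a mean of 2.66 and an adjusted p of 0.0365. Which of the 2 strains was called also depended on how arrays were weighed against each other. With arrays scaled to a common spread, quantile normalisation or array weights, Fermol cryophile was called (2.74, 3.15 and 2.48, adjusted p 0.00453, 0.000784 and 0.000514) and S. uvarum was not (1.34, 1.39 and 1.62, adjusted p 0.0882, 0.0589 and 0.0817).

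BAT2 was below T73 on 8 of 9 arrays at 12°C. Fermol cryophile had -1.09, -1.35 and -1.37, a mean of -1.27 ± 0.15 (SD, n = 3), all low on their arrays, and lay just outside the threshold (adjusted p 0.0503, interval -2.08 to -0.46). It was called when any 1 of 6 arrays of other groups was left out (adjusted p 0.0326 to 0.0485). S. kudriavzevii had -0.95, -0.22 and -1.23, and S. uvarum -0.74, 0.09 and -0.87. At 28°C the ratios were no longer low. S. uvarum showed the most even BAT2 values of all, 0.47, 0.63 and 0.53 (mean 0.54 ± 0.08, SD, n = 3, adjusted p 0.371). Fermol cryophile had 1.80 and 1.95 on replicates A and B but -0.10 on C (mean 1.22 ± 1.14, SD, n = 3, adjusted p 0.213), and without C its mean was 1.87 with an adjusted p of 0.0234. S. kudriavzevii stayed near T73 with -0.35, -0.16 and 0.45.

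ARO8 and ARO9 encode the aromatic transaminases. ARO8 is expressed broadly and also serves synthesis, while ARO9, like ARO10, is induced by aromatic amino acids through the activator ARO80 in S. cerevisiae. ARO8 at 12°C was close to T73 in Fermol cryophile (0.73, -0.27 and -0.27) and S. uvarum (0.13, -0.04 and -0.28). S. kudriavzevii was above T73 on all 3 arrays, with 0.88, 1.07 and 0.07. None of these groups was called. At 28°C Fermol cryophile gave the highest group mean of ARO8, 2.08, 1.06 and 0.81 (mean 1.32 ± 0.67, SD, n = 3, adjusted p 0.240). S. uvarum gave 1.70 and 1.36 on replicates B and C but -0.99 on A, and S. kudriavzevii gave -0.41, 1.02 and 0.14. Without S. uvarum replicate A its mean at 28°C was 1.53 with an adjusted p of 0.0353, so that 1 array decided this call. Fermol cryophile at 28°C was called for ARO8 with scaled arrays (1.70, adjusted p 0.0335), quantile normalisation (1.81, adjusted p 0.0346) or array weights (1.44, adjusted p 0.00557).

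ARO9 was at or below T73 on most arrays. At 12°C it was -0.85, -0.09 and 0.35 in Fermol cryophile, -1.21, -0.02 and -1.39 in S. uvarum, and -1.33, 0.40 and -1.29 in S. kudriavzevii. At 28°C Fermol cryophile had -0.36, -0.65 and -0.33 and S. kudriavzevii -1.16, 0.13 and -0.85. One array stood apart. The S. uvarum arrays at 28°C were -3.61, -0.27 and -0.31, and this first value, below all but 0.689% of the genes on that array, set the group mean of -1.39 ± 1.92 (SD, n = 3, adjusted p 0.110). It is the same array on which ARO8 was low. In S. uvarum ARO9 was below 0 and ARO10 above 0 on all 6 arrays of both temperatures. The ARO9 value of replicate B at 12°C was only -0.02. The share of all genes with these 6 arrays on one side of 0 was not counted.

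All 3 arrays of a group lay on one side of 0 in 20 of the 36 combinations of gene and group, 9 higher and 11 lower than T73. That was 55.6%, against 48.3% over all genes and groups. By group it was 4, 3 and 4 of the 6 genes at 12°C (Fermol cryophile, S. uvarum, S. kudriavzevii) and 3, 5 and 1 at 28°C. The shares over all genes were 65.2%, 48.9% and 50.7% at 12°C and 42.1%, 40.7% and 42.5% at 28°C, in the same order of strains. The study's own rule, a median of at least 2-fold with no test, was met in 13 of the 36 combinations, 8 higher and 5 lower. Over all genes it was met by 30.3%, 27.8% and 40.3% at 12°C and by 22.5%, 34.2% and 15.1% at 28°C. In S. kudriavzevii at 28°C, limma called 0.146% of all genes and none of the 6, and none had an unadjusted p below 0.05. None of the 6 met the 2-fold rule there, and THI3 was the 1 gene with all 3 arrays on one side of 0.

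Ordered by group mean, ARO10 ran from S. uvarum at 12°C (2.30) through S. kudriavzevii at 12°C, S. uvarum at 28°C, Fermol cryophile at 12°C and S. kudriavzevii at 28°C down to Fermol cryophile at 28°C (-0.28). BAT1 ran from Fermol cryophile (2.19) and S. uvarum at 28°C through S. uvarum at 12°C, S. kudriavzevii at 28°C and Fermol cryophile at 12°C to S. kudriavzevii at 12°C (-1.37). For BAT2 the 3 groups at 28°C stood above the 3 groups at 12°C, with Fermol cryophile at both ends (1.22 and -1.27). The range of the 6 means was 3.56 for BAT1, 2.58 for ARO10, 2.49 for BAT2, 1.38 for ARO8, 1.26 for THI3 and 1.19 for ARO9. No step between neighbours in these orders exceeded the half-width of the 95% interval of a difference, which was between 1.14 (BAT2) and 1.65 (ARO9). The largest such step was 1.11, for BAT1.

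The comparison of temperatures asked whether the ratio of a strain to T73 differed between 28°C and 12°C. Since T73 was grown at each temperature too, the difference holds the response of the strain minus that of T73. Here and below, rose and fell refer to this ratio and not to the transcript of the strain alone. In Fermol cryophile BAT1 rose by 2.86 on the log2 scale (SE 0.73, 95% interval 1.32 to 4.39, limma adjusted p 0.0253) and BAT2 rose by 2.49 (SE 0.54, interval 1.35 to 3.63, adjusted p 0.0202). These were the only calls among the 6 genes within a strain, in a comparison in which 12.2% of all genes were called (5.64% higher). In S. uvarum BAT1 differed by 0.82 (interval -0.71 to 2.35) and BAT2 by 1.05 (interval -0.09 to 2.19). In S. kudriavzevii the values were 1.19 (interval -0.34 to 2.72) and 0.78 (interval -0.36 to 1.92). Limma called 2.87% of all genes in S. uvarum and 0.407% in S. kudriavzevii for temperature, and none of the 6 (0 also with an unadjusted p below 0.05).

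Averaged over the 3 strains, BAT1 rose by 1.62 (SE 0.42, interval 0.74 to 2.51, adjusted p 0.00770) and BAT2 by 1.44 (SE 0.31, interval 0.78 to 2.10, adjusted p 0.00279). ARO10 fell by 1.08 (SE 0.37, interval -1.86 to -0.30, adjusted p 0.0318). The other genes differed by 0.53 (ARO8, adjusted p 0.282), -0.22 (ARO9, adjusted p 0.724) and -0.25 (THI3, adjusted p 0.589). This comparison called 36.2% of all genes, 19.8% higher and 16.4% lower at 28°C, which is the share to read the 3 calls among 6 genes against. ARO8 was called as well without S. uvarum replicate A at 28°C (0.81, adjusted p 0.0437). The median difference over all genes was 0.14, and relative to centred arrays the values were 1.51 for BAT1, 1.33 for BAT2 and -1.19 for ARO10.

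The averaged BAT1 and BAT2 calls held when each of the 18 arrays was left out in turn, with adjusted p up to 0.0195 and 0.00808. All arrays of a temperature share T73, so a change in T73 would enter every strain alike. Leaving out a single array cannot show such a change, and the averaged intervals and p-values do not include it. The calls within Fermol cryophile did not hold when single arrays were left out. BAT1 lost its call without any of replicates A, B and C at 12°C or replicates A and B at 28°C (values 2.58 to 2.87, adjusted p 0.0575 to 0.137). BAT2 lost it without replicates A or B at 12°C or A or B at 28°C (2.12 to 2.57, adjusted p 0.0586 to 0.128). The averaged ARO10 call was lost in 8 of the 18 cases, with adjusted p up to 0.0690 without Fermol cryophile replicate B at 28°C. The other 7 arrays were Fermol cryophile replicate A at 12°C and at 28°C, S. kudriavzevii replicates A and B at 12°C and B at 28°C, and S. uvarum replicate B at 12°C and C at 28°C.

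**Figure D2:**
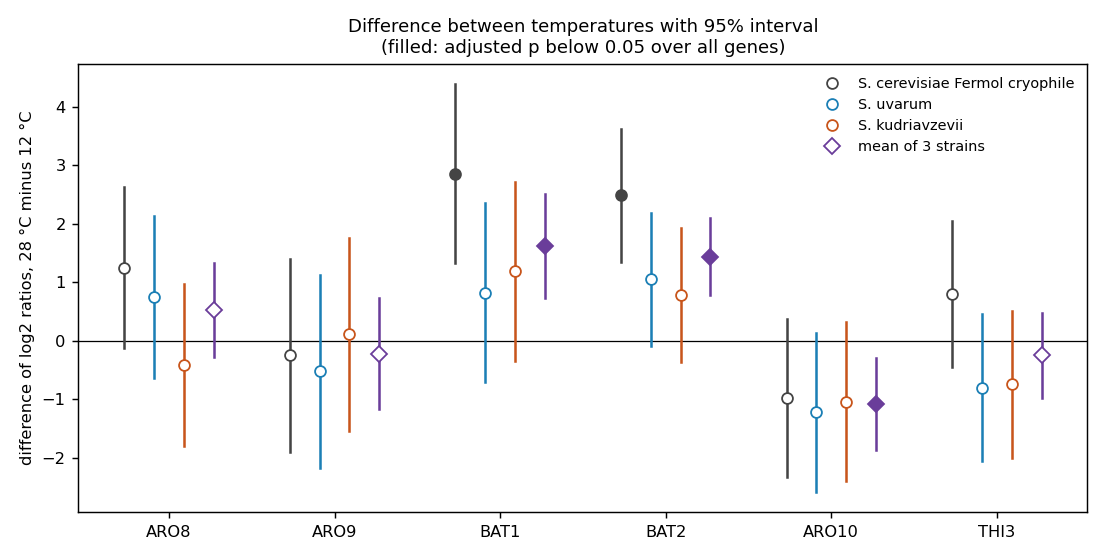
Difference of the log2 ratios between 28°C and 12°C (vertical axis) for each gene, with the 95% interval from limma; circles are the 3 strains, diamonds their mean, and filled symbols were called. BAT1 and BAT2 lie above 0 in all 3 strains and ARO10 below 0 in all 3, but within a single strain only the 2 Fermol cryophile values of 2.86 and 2.49 were called.

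The arrays of both temperatures did not overlap for BAT1, BAT2 and ARO8 in Fermol cryophile (higher at 28°C, as for 30.6% of genes), nor for ARO10 (lower, 21% of genes). In S. uvarum BAT2 was higher at 28°C without overlap (14.5% of genes) and ARO10 lower (8.7%). In S. kudriavzevii BAT1 was higher without overlap (13% of genes), and no gene of the 6 was lower without overlap (13%). The ARO10 difference was -0.97 in Fermol cryophile, -1.04 in S. kudriavzevii and -1.22 in S. uvarum, without a call in any of them.

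Whether the temperature difference itself differed between strains was tested as well, a test added after the values were seen. None of the 18 differences of the 6 genes was called, and neither was any other gene on the array (0 of the genes tested for each pair of strains, between 171 and 344 of which had an unadjusted p below 0.05). Unadjusted, 1 of the 18 had a p below 0.05, BAT2 in S. kudriavzevii minus Fermol cryophile, at -1.71 with an interval of -3.32 to -0.09 and a limma adjusted p of 0.821. For BAT1 the S. uvarum minus Fermol cryophile value was -2.04 (interval -4.20 to 0.13, adjusted p 0.993). The standard errors of these 18 values, between 0.76 and 1.11, mean that differences of several-fold between strains were not detectable with 3 arrays a group.

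Control spots differed between temperatures too. A spot of Arabidopsis DNA lay above 0 on all 9 arrays at 12°C (1.37 to 4.12, median 1.61) and below 0 on 8 of 9 at 28°C (-2.02 to 0.54, median -0.83). The buffer spot had a median of 1.22 at 12°C (6 of 9 above 0) and of -1.16 at 28°C (8 of 9 below 0). ARO10 shifted the same way as these spots and BAT1 and BAT2 the opposite way. The part of such a shift in the temperature results was not tested. Pairs of arrays from different temperatures correlated across genes between -0.62 and 0.35, and 15 of 81 pairs were below -0.3. The same direction was kept at both temperatures because the labels give Cy3 for the strain and Cy5 for T73 at both. The labels do not state the numerator. The direction was taken from the study's statements on other genes, and no value measured here settles it. With the sign of all 28°C arrays turned, an alternative added after the values were seen, the averaged difference was -0.88 for BAT1 (adjusted p 0.124), 0.28 for BAT2 (adjusted p 0.519) and -1.90 for ARO10 (adjusted p 0.00182). The BAT1 and BAT2 calls, within Fermol cryophile too, and the orders of group means across temperatures thus hold only for the direction used here. The averaged ARO10 difference was below 0 and called either way. Turning the sign leaves the size and p of comparisons within a temperature as they are.

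**Figure D3:**
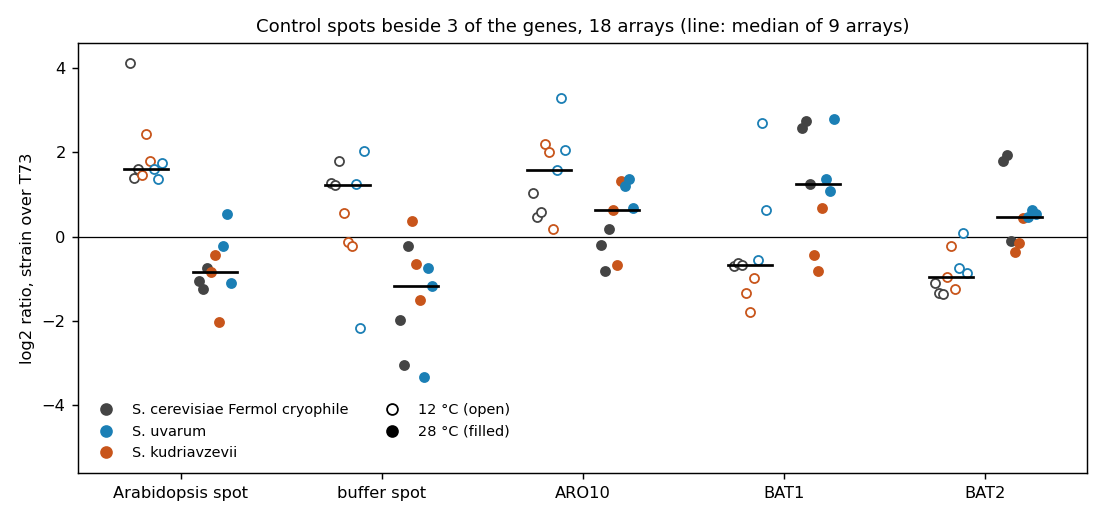
Log2 ratio of strain over T73 (vertical axis) of 2 control spots and of ARO10, BAT1 and BAT2 on the 18 arrays, open at 12°C and filled at 28°C, with a line at the median of 9 arrays. From 12°C to 28°C the medians go from 1.61 to -0.83 for the Arabidopsis spot and from 1.57 to 0.62 for ARO10, but from -0.66 to 1.25 for BAT1 and from -0.95 to 0.47 for BAT2.

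Strains were then compared with each other at the same temperature. Over the 36 comparisons none was called and 8 had an unadjusted p below 0.05, the lowest adjusted p being 0.320. Almost nothing was called over all genes either, at 12°C 0.0162% of genes for S. uvarum against Fermol cryophile and 0% for S. kudriavzevii against either strain, and at 28°C 0%, 0.0163% and 0.146% for S. uvarum against Fermol cryophile, S. kudriavzevii against Fermol cryophile and S. uvarum against S. kudriavzevii. Unadjusted, between 437 and 698 genes had a p below 0.05 in these 6 comparisons.

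BAT1 gave the widest strain differences. At 12°C S. uvarum exceeded S. kudriavzevii by 2.29 (interval 0.76 to 3.83, adjusted p 0.583) and at 28°C by 1.93 (interval 0.39 to 3.46, adjusted p 0.320). At 28°C S. kudriavzevii was below Fermol cryophile by 2.38 on the log2 scale (interval -3.91 to -0.84, adjusted p 0.538). In these 3 pairs the arrays did not overlap, which held for 9.18%, 15.7% and 19.5% of genes in the order given. The S. kudriavzevii value against Fermol cryophile at 28°C was called once the arrays were scaled (-2.97, adjusted p 0.0340) or quantile normalised (-3.39, adjusted p 0.0118).

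At 12°C BAT1 of S. uvarum was above, and of S. kudriavzevii below, all Fermol cryophile arrays (19.5% and 15.2% of genes did not overlap in these pairs). ARO10 in S. uvarum was higher than in Fermol cryophile without overlap at both temperatures, by 1.61 at 12°C (interval 0.26 to 2.96, adjusted p 0.597) and by 1.36 at 28°C (interval 0.01 to 2.71, adjusted p 0.593). At 28°C 12.8% of genes did not overlap in that pair. BAT2 of S. uvarum did not overlap with Fermol cryophile at 12°C (0.76 higher, adjusted p 0.713) or with S. kudriavzevii at 28°C (0.56 higher, adjusted p 0.759).

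Within an array the 2 genes of a pair share the dye and the reference. The difference between 2 ratios says how unequally both genes stood relative to T73 and not which is more abundant. How often other pairs of genes keep one sign over the arrays was not counted, so the counts below are descriptions only. BAT1 minus BAT2 was above 0 on all arrays of Fermol cryophile (0.60 ± 0.19 at 12°C and 0.97 ± 0.32 at 28°C, SD, n = 3). The same held in S. uvarum (1.43 ± 1.21 and 1.20 ± 0.94, SD, n = 3). In S. kudriavzevii it was above 0 on 1 of 3 arrays at each temperature (-0.57 ± 0.93 and -0.16 ± 0.45, SD, n = 3).

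ARO8 minus ARO9 was above 0 on 9 of 9 arrays at 28°C (0.75 to 2.62, median 1.67) and on 6 of 9 at 12°C (-0.62 to 2.21, median 1.11). It was most even in S. kudriavzevii at 28°C, at 0.88 ± 0.12 (SD, n = 3). ARO10 minus THI3 was above 0 on 8 of 9 arrays at 12°C and on 7 of 9 at 28°C. The exceptions at 28°C were both in Fermol cryophile, whose mean was -0.50 ± 1.39 (SD, n = 3) against 2.12 ± 0.70 in S. uvarum.

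**Figure D4:**
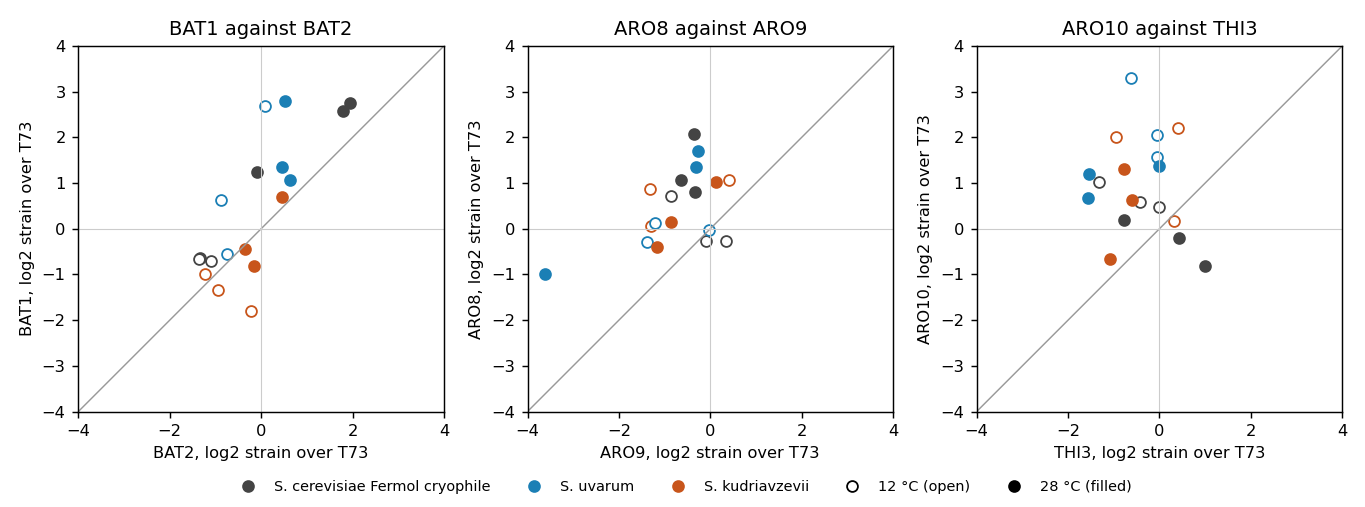
Log2 ratio of strain over T73 of 1 gene (vertical axis) against the other gene of its pair (horizontal axis) on 18 arrays, open at 12°C and filled at 28°C, with the line of equal ratios. ARO8 is above the line on all 9 arrays at 28°C, BAT1 is above it on all arrays of Fermol cryophile and S. uvarum, and ARO10 is below it on 2 of the 3 Fermol cryophile arrays at 28°C.

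Across the 9 arrays of a temperature, BAT1 and BAT2 correlated with Pearson r 0.79 at 28°C (Spearman rho 0.77) and 0.49 at 12°C (rho 0.22). BAT2 and ARO10 correlated with r 0.87 at 12°C (rho 0.78) and -0.34 at 28°C (rho -0.08). ARO8 and ARO9 gave r 0.80 at 28°C (rho 0.67), where 1 S. uvarum array was low for both, and -0.02 at 12°C (rho 0.15). These coefficients describe the arrays, which share the T73 channel, and were taken from 15 pairs of genes, both transaminase pairs and the pair with the highest r at 12°C.

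Genes whose ratios ran most like each of the 6 over the 18 arrays were sought among 4371 named genes with a value on all arrays. For BAT2 they were GCD6, the catalytic subunit of a translation initiation factor complex (r 0.93), and DAL5, a permease for allantoate (r 0.92). BAT1 was followed most closely by GIS2, an RNA-binding zinc finger protein (r 0.93), and KTR4, a mannosyltransferase (r 0.92). ARO10 was nearest to RPB11, a subunit of RNA polymerase II (r 0.84), and FAT3 (r 0.84). For THI3 the nearest genes were PIK1, a phosphatidylinositol kinase (r 0.82), and ATP14, a subunit of the mitochondrial ATP synthase (r 0.78). ARO8 was closest to PNT1 (r 0.79) and SSH4 (r 0.76). The nearest to ARO9 were MFA2, which encodes a mating pheromone (r 0.76), and VPS72, a subunit of a chromatin remodelling complex (r 0.76). Over the 12°C arrays alone, ARO8 gave r 0.19 with PNT1 and 0.34 with SSH4, and ARO9 gave 0.25 with MFA2. The other pairs named here had r of at least 0.64 there. Each r over 18 arrays also depends on the same direction being used at both temperatures. The highest of 4371 coefficients is high by selection, and 1% of genes exceeded r 0.84 with BAT2, so these names describe the arrays only. None of the 6 genes was among the nearest of another, BAT1 and BAT2 being the closest pair (r 0.77, rank 177 for BAT1).

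The rest of the pathway was counted over 62 genes in 9 lists, all measured. At 12°C, 4 genes were called higher and 0 lower in Fermol cryophile, 4 higher and 1 lower in S. uvarum, and 7 higher and 8 lower in S. kudriavzevii. At 28°C the counts were 0 in Fermol cryophile and S. kudriavzevii, and 6 higher and 0 lower in S. uvarum. In the 4 groups with calls these were 6.45%, 8.06%, 24.2% and 9.68% of the 62 genes, against 8.12%, 6.4%, 23.4% and 10.9% of all genes. For temperature averaged over the strains 17 of 62 were called higher and 5 lower at 28°C, with a median of 0.45 against 0.14 over all genes. That was 35.5% of the 62 genes, next to 36.2% of all genes (19.8% higher, 16.4% lower). The share called in both directions together was thus close to the background. By direction the lists had 17 higher and 5 lower, against 1207 and 998 over all genes, a difference that was not tested. The counts of 2 to 9 genes per list below are to be read against the same shares.

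The synthesis of branched-chain amino acids ends in the reaction of BAT1. Of 9 genes of branched-chain amino acid synthesis 3 rose and 0 fell at 28°C averaged over the strains, against 36.2% of all genes called and 19.8% called higher, with a list median of 1.01. They were ILV2, a subunit of acetolactate synthase (1.58, adjusted p 0.00522), ILV5, the reductoisomerase (1.61, adjusted p 0.00380), and ILV3, the dehydratase (1.01, adjusted p 0.0316). By the study's genomic hybridisations ILV5 of S. kudriavzevii did not bind these probes, so its averaged value includes a strain whose ratio may not be usable. Within Fermol cryophile ILV2 rose by 2.23 (adjusted p 0.0405) and ILV5 by 2.50 (adjusted p 0.0256).

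The aromatic synthesis list was divided. Of its 9 genes 3 rose at 28°C on average, ARO3 (2.38), TRP2 (2.06) and ARO7 (1.70), and 2 had lower ratios, TYR1 (-2.83) and ARO1 (-2.46). ARO1, the multifunctional enzyme of the shikimate pathway, was also called higher than T73 at 12°C in Fermol cryophile (2.50, adjusted p 0.0132), S. uvarum (1.38, adjusted p 0.0472) and S. kudriavzevii (2.31, adjusted p 0.00246). TYR1, prephenate dehydrogenase, was called higher in 2 of them, at 3.07 in Fermol cryophile and 3.12 in S. kudriavzevii.

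Downstream of the decarboxylases, 3 of 8 alcohol dehydrogenase genes rose at 28°C on average, ADH4 (2.54, adjusted p 0.000651), ADH5 (1.84, adjusted p 0.0191) and SFA1 (1.72, adjusted p 0.000602), and 0 fell, next to the same 36.2% of all genes called. The list median was 1.37. Among 7 genes of aldehyde oxidation and fusel acid export 1 rose, ALD3 (0.79, adjusted p 0.0473). None of the 3 pyruvate decarboxylase genes was called, with a median of 0.99. The acetyltransferase genes ATF1 and ATF2, which make acetate esters, were not called on average, while ATF1 fell by 1.60 in Fermol cryophile (adjusted p 0.0427) and ATF2 was 1.79 above T73 in S. uvarum at 12°C (adjusted p 0.0230).

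Among 8 permease genes GAP1, the general amino acid permease, rose by 1.84 and BAP2, which takes up branched-chain amino acids, by 1.22 (adjusted p 0.0202 and 0.00528), and MUP1, a methionine permease, fell by 1.30 (adjusted p 0.0453). Of 8 regulators URE2 (1.46), GCN4 (1.51) and DAL80 (1.06) rose and GAT1 fell by 2.23. In the thiamine list, which goes with THI3, THI20 (2.34) and PHO3 (1.23) rose and PDC2, an activator of thiamine and pyruvate decarboxylase genes, fell by 2.38, out of 8. THI3 itself differed by -0.25. The part of the control spot shift in these averaged values was not tested. Whether their signs depend on the direction used here was not tested either.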

How the data were processed

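Gene expression of 3 strains was measured against S. cerevisiae Lalvin T73 on 18 arrays with 2 colours, the strain in Cy3 and T73 in Cy5 throughout, so no dye swap balances a dye bias. The authors deposited 1 log2 ratio per spot and array. By their methods, GenePix Pro signals with global background subtraction were normalised in Acuity to what they call a log2 ratio of 1 (read here as 0, since array medians lay between -0.196 and 0.208), effects of the print tips were removed by hand, and spots that were not found left out. Intensities were not used here, so that signal over background is unknown and precision is limited by the number of arrays. The numerator dye was not stated. All signs were turned to strain over T73, after which 102 of 102 directions the study gives for other genes matched (58 of 58 at 12°C, 44 of 44 at 28°C), against 0 as deposited, which shows the sign of the file only.

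Of 6180 lines 2 control spots were left out, and repeated lines were averaged to 6172 genes. Locus tags were paired with RefSeq names of assembly R64 (5674 directly, 12 by an older name, 492 unmatched), and 1.47% of values were missing. Limma 3.58.1 in R 4.3.3 fitted 1 coefficient per group over 18 arrays, for genes with at least 2 values per group compared. T73 counts as 1 control sample, and testing its ratio against 0 leaves out its own spread. Comparisons of temperatures likewise leave out any spread of T73 that the arrays of a temperature share. Two-sided p-values were adjusted by Benjamini-Hochberg over all genes of a comparison. The fit was tested on simulated data with independent arrays and 1 spread per gene. That simulation held neither a shared T73 nor the unequal spread of the arrays. Alternatives were centring, scaling, quantile normalisation, array weights, missing values below -10, complete genes, the replicate letter as a block, each comparison's groups alone, leaving out each array and, added later, turning the sign of the 28°C arrays.

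The 6 genes and the pathway lists were chosen with earlier results of these data known. The 6 are described throughout. List genes are counted, and those called may be named, up to 3 per direction. The 2 genes with the highest r were named for each of the 6. Sequences were not used here.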

Additional observations from a re-analysis of the deposited data

Results flagged for a closer look

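BAT1 and BAT2 were picked out because their ratios to T73 differed between temperatures by the limma test, by 2.86 and 2.49 in Fermol cryophile and by 1.62 and 1.44 averaged over the 3 strains. ARO10 was picked out for the opposite difference, -1.08 averaged over the strains. The Arabidopsis control spot, which enters no comparison, lay above 0 on all 9 arrays at 12°C with a median of 1.61. Its part in the temperature differences was not tested. With 3 arrays a group, no group was large enough for a test of single outlying arrays.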

How the results depend on the processing

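The number of the 6 genes called changed with the processing as follows. In Fermol cryophile at 12°C it was 0, and 1 (BAT2) with scaled arrays, quantile normalisation, values below -10 missing, complete genes or only its own group in the fit, 2 with array weights and 1 by the 2-fold rule. In S. uvarum at 12°C it was 1, 0 with only its group in the fit and 2 by the 2-fold rule. In S. kudriavzevii at 12°C it was 1, 2 with centred arrays, 0 with scaled arrays, quantile normalisation or only its group, and 3 by the 2-fold rule. In Fermol cryophile at 28°C it was 0, 2 with scaled arrays or quantile normalisation, and 3 with array weights or by the 2-fold rule. In S. uvarum at 28°C it was 1, 0 with scaled arrays, quantile normalisation, array weights or only its group, and 4 by the 2-fold rule. For temperature in Fermol cryophile it was 2, and 4 with array weights. For S. kudriavzevii against Fermol cryophile at 28°C it was 0, 1 with scaled arrays or quantile normalisation and 4 with array weights. The averaged ARO10 difference lost its call with scaled arrays (-0.87, adjusted p 0.0608) and quantile normalisation (-0.90, adjusted p 0.0601), while those of BAT1 and BAT2 kept theirs under all 8 alternatives to the processing, and under these no called value changed its sign. With the sign of the 28°C arrays turned, added after the values were seen, the number called for temperature was 0 in Fermol cryophile, 2 in S. uvarum and 2 on average. BAT1 then changed sign in Fermol cryophile (-1.52, adjusted p 0.528), S. uvarum (-2.66, adjusted p 0.0241) and on average (-0.88), and ARO9 on average (1.43, adjusted p 0.0262). The causes were not tested.

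Leaving out each array in turn gave 0 to 1 called genes in Fermol cryophile and S. uvarum at 12°C, 0 to 2 in S. kudriavzevii at 12°C, and 0 to 2, 0 to 1 and 0 to 0 in Fermol cryophile, S. uvarum and S. kudriavzevii at 28°C. For temperature it gave 0 to 2 in Fermol cryophile, 0 to 0 in the other two and 2 to 4 on average, and 0 to 0 in the 6 comparisons of strains. A group left with 2 arrays was assumed to vary like the others. Deviations of arrays that share a replicate letter across groups correlated between -0.35 and 0.38 over 45 pairs, with 15 above 0.1. These values do not settle whether the letters pair the arrays. Over all genes, a block for the letter moved the number called in Fermol cryophile from 501 to 640 at 12°C and from 2 to 0 at 28°C. With the letter as a replicate block, 1 gene, BAT2, was called in Fermol cryophile at 12°C (-1.27, adjusted p 0.0447), and the block changed no other call of the 6 genes.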
